A study of Mus musculus with 12 samples.

Results

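The 29 genes described here encode receptors and transporters of glutamate, and they were taken by symbol from the 24570 named genes of a microarray study of mouse retina. They comprise 4 AMPA, 5 kainate, 7 NMDA and 1 delta receptor subunits, 6 metabotropic receptors, 2 vesicular transporters and 4 transporters of the plasma membrane, and all 29 were measured. The rule that names them uses function and no measured value. Whole retinas of male C57BL6/J mice were compared at 6 weeks, with 6 diabetic animals and 6 normoglycaemic, age-matched controls and 1 array per animal. Per the labels' protocols, diabetes came from streptozotocin, which destroys the insulin-producing cells of the pancreas, given into the peritoneum at 160 mg/kg to mice of 8 weeks and 24 to 26 g. Hyperglycaemia was established at 7 days, with blood glucose over 15 mM, and controls were labelled normoglycaemic and without streptozotocin. The sample labels count the 6 weeks from induction, whereas the series text calls the animals themselves 6 weeks old, which cannot hold for mice injected at 8 weeks. The model rests on a toxin given to adult mice, and the labels name no vehicle injection for the controls.

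Glutamate is the transmitter of the vertical pathway of the retina, from photoreceptors to bipolar cells and from bipolar cells to ganglion cells. Ionotropic receptors (AMPA, kainate and NMDA) are ion channels opened by glutamate, while metabotropic receptors act through G proteins and many of them sit on the releasing terminal and damp release. Vesicular transporters load glutamate into synaptic vesicles, and transporters of the plasma membrane clear it from the cleft. In darkness photoreceptors release glutamate continuously, so that both loading and clearance are in constant use.

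Values are log2 RMA values, 1 per gene and array, on which a difference of 1 is a doubling of signal. The 12 arrays share 1 distribution, with a median of 5.73 and a 75th percentile of 7.20, and correlated with each other at 0.993 to 0.998. Rod markers averaged 12.59 to 12.69 in diabetic and 12.61 to 12.70 in control retinas, near the top of the scale, as in retina. Lens markers ranged from 5.86 to 7.45 in diabetic and from 5.98 to 6.64 in control retinas. Pigment epithelium markers ranged from 6.97 to 8.31 in diabetic and from 6.97 to 7.70 in control retinas. Because whole retina mixes all cell types, fewer cells of a type and less RNA per cell cannot be told apart. The label numbers of all diabetic animals are lower than those of all controls. The labels do not explain the numbers, and anything they mark cannot be told apart from diabetes.

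Of the 29 genes, 13 lay above the 75th percentile of the array, 11 between it and the median and 5 below the median. These 5 were Grik3, Grin2c, Grin3b, Grm3 and Grm4, for which a missing difference says little. Values of different genes come from different probes and have no order as transcript amounts. No gene of the group lay below the 25th percentile of all genes.

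**Figure D1:**
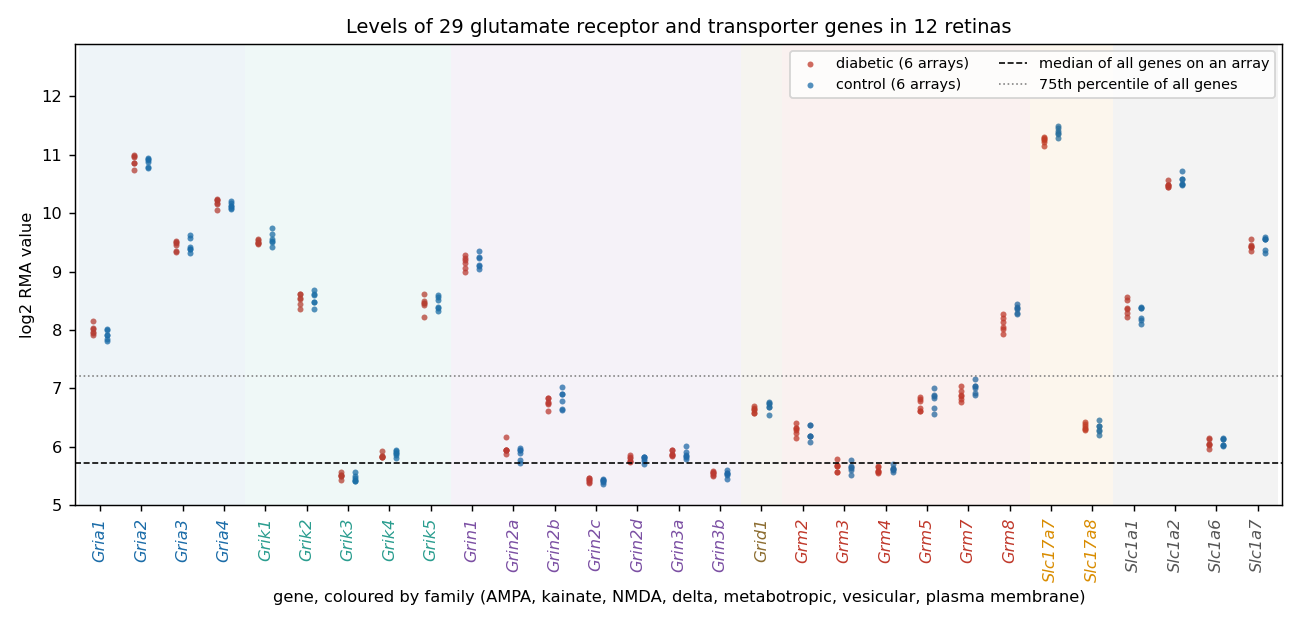
Log2 RMA values of the 29 genes (x axis, by family) on 6 diabetic (red, left of each pair) and 6 control arrays (blue, right); each point is 1 retina. The dashed line is the median of all genes on an array (5.73) and the dotted line the 75th percentile (7.20); group clouds overlap for every gene other than Grm8.

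Changes were small, and 1 of the 29 genes passed the test over all genes (limma, diabetic minus control, Benjamini-Hochberg adjusted p under 0.05). That gene was the metabotropic receptor gene Grm8, which fell, and 0 genes rose, also at an unadjusted p under 0.05. Over all 24570 genes, 3.24% passed in either direction, 1.77% were lower and 1.47% higher. An unadjusted p under 0.05 was found for 3 of the 29 genes (10.3%), namely Grm8, Slc17a7 and Grm7, all lower in diabetic retinas, against 21% of all genes in either direction and 11.3% lower. The median log2 change of the 29 genes was -0.015, with 13 values above 0 and 16 below, and that of all genes was -0.0018. Their median absolute change was 0.04, against 0.03 over all genes and 0.07 over all genes brighter than the array median. Among the 24 members brighter than that median it was 0.06.

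**Figure D2:**
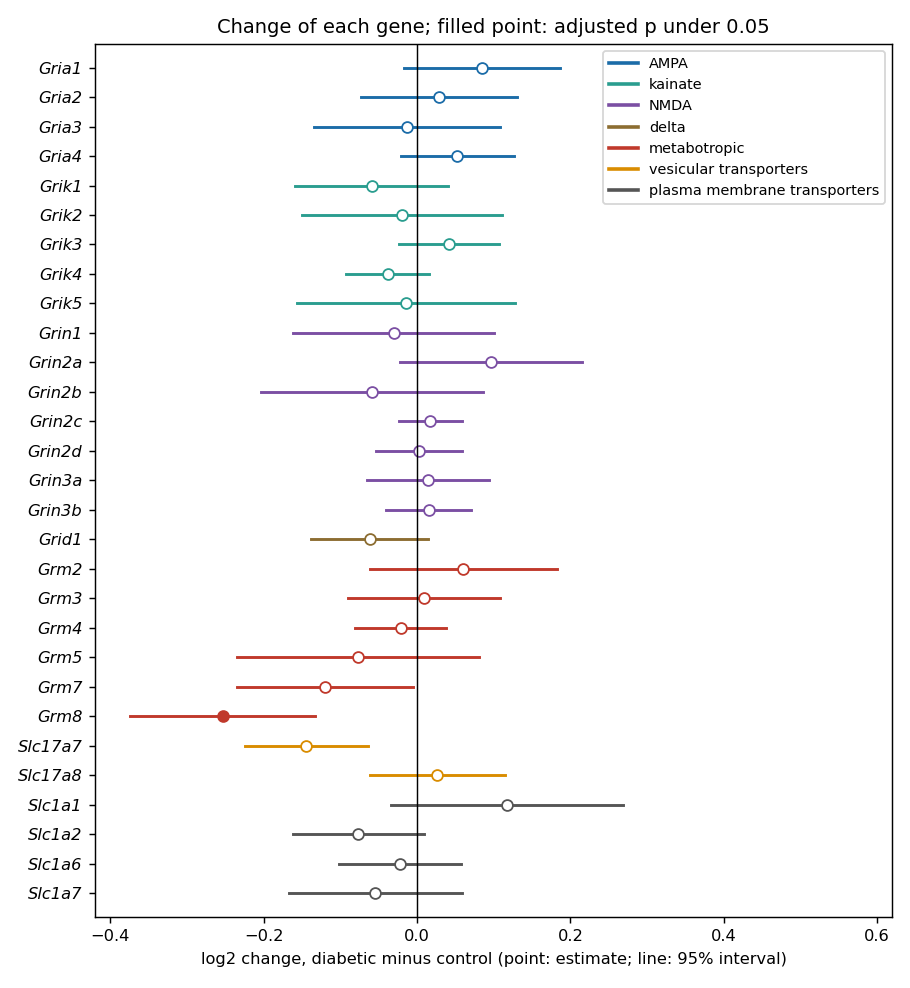
Log2 change of each gene, diabetic minus control (point), with its 95% interval from limma (line), coloured by family; a filled point has an adjusted p under 0.05. Grm8 (-0.25) is the one filled point, and the intervals of Grm7 and Slc17a7 also lie below 0.

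The precision of these estimates was high enough to bound the changes in array signal of the genes that did not pass. Standard errors of the 29 changes ran from 0.02 to 0.07 on the log2 scale. For the 28 genes without a call, the 95% intervals reached at most down to -0.23 (Grm7) and up to 0.27 (Slc1a1). A missing call does not show that a gene was unchanged within these bounds. For the 5 genes below the array median, narrow intervals of the signal do not bound the change in transcript. Neither do they for Grin2d, Grik4, Grin3a and Grin2a, just above that median.

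AMPA receptor subunits, which form the fast glutamate-gated channels of bipolar, horizontal, amacrine and ganglion cells, did not pass in either direction. Gria1 ranged from 7.91 over a median of 7.98 to 8.16 in diabetic retinas, and from 7.81 over 7.91 to 8.02 in controls. The groups overlapped, although 5 of 6 diabetic retinas lay above the control mean (change of 0.08 ± 0.05 on the log2 scale, where errors of changes are SEs with 6 retinas in each group; limma, adjusted p = 0.326). Gria4 had a lowest, median and highest value of 10.06, 10.20 and 10.25 in diabetic retinas, against 10.08, 10.12 and 10.20 in controls. It differed by 0.05 ± 0.03 (limma, adjusted p = 0.407). Gria2, the subunit that makes AMPA channels nearly impermeable to calcium, had 10.74, 10.91 and 10.99 in diabetic retinas and 10.77, 10.89 and 10.94 in controls. Its change was 0.03 with a 95% interval from -0.07 to 0.13, and that of Gria3 was -0.01 with an interval from -0.13 to 0.11. Of the 4 AMPA genes, 3 had changes above 0, with a median of 0.04.

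Kainate receptor subunits had 4 of 5 values below 0 (median -0.02) and 0 calls. Grik1, the kainate subunit of OFF bipolar cells, had a lowest, median and highest value of 9.47, 9.50 and 9.55 in diabetic retinas and of 9.43, 9.55 and 9.75 in controls. All 6 diabetic values lay below the control mean but inside the control range (-0.06 ± 0.05; limma, adjusted p = 0.498). Diabetic retinas spanned 0.09 for Grik1, while controls spanned 0.33. Grik4, a subunit that works only together with other kainate subunits, had 5.82, 5.83 and 5.93 in diabetic and 5.81, 5.89 and 5.93 in control retinas (-0.04 ± 0.02; limma, adjusted p = 0.407). The dim Grik3 differed by 0.04 ± 0.03, with 5.43, 5.504 and 5.57 in diabetic and 5.41, 5.44 and 5.57 in control retinas. Grik2 and Grik5 differed by -0.02 ± 0.06 and -0.01 ± 0.07.

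NMDA receptors pair the obligatory Grin1 subunit with glutamate-binding Grin2 or glycine-binding Grin3 subunits, and in the retina they serve mainly ganglion and amacrine cells. Of the 7 genes 0 passed, 5 values lay above 0, and the median change was 0.01. Grin1 differed by -0.03, with an interval from -0.16 to 0.10. Grin2a had a lowest, median and highest value of 5.88, 5.94 and 6.16 in diabetic retinas and of 5.71, 5.91 and 5.97 in controls (0.10 ± 0.05; limma, adjusted p = 0.336). Every diabetic value of Grin2a was above the control mean, and the groups overlapped. Grin2b had 6.61, 6.76 and 6.84 in diabetic retinas against 6.63, 6.84 and 7.01 in controls (-0.06 ± 0.07; limma, adjusted p = 0.662). The dim Grin2c had 5.38, 5.43 and 5.45 in diabetic and 5.35, 5.41 and 5.45 in control retinas, a change of 0.02 ± 0.02. Grin2d, Grin3a and Grin3b differed by 0.00 to 0.01 with standard errors of at most 0.04. Grid1, a delta subunit that links synapses through cerebellins and does not need glutamate for it, had 6.58, 6.63 and 6.69 in diabetic retinas and 6.55, 6.70 and 6.76 in controls (-0.06 ± 0.04; limma, adjusted p = 0.344).

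Metabotropic receptors held the one call. Grm8, which encodes a receptor of the presynaptic group III that couples to inhibitory G proteins and is known from photoreceptor terminals, had values of 8.02, 8.04, 7.93, 8.13, 8.21 and 8.28 in diabetic replicates 1 to 6. The 6 control retinas had 8.37, 8.44, 8.28, 8.36, 8.28 and 8.40. The groups did not overlap, but the highest diabetic value (8.275, replicate 6) and the lowest control value (8.277, replicate 5) were parted by only 0.002. Means were 8.10 ± 0.13 in diabetic and 8.35 ± 0.06 in control retinas (SD, n = 6 each), so Grm8 fell by 0.25 ± 0.06 on the log2 scale (SE). This is a level 16.1% lower in diabetic retinas (95% interval of the log2 change from -0.37 to -0.13; limma, adjusted p = 0.0348). By p-value Grm8 ranked 469 among all genes. Groups did not overlap for this 1 of 29 genes, against 2.84% of all genes in either direction and 1.62% with diabetic retinas lower.

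Grm7, another group III receptor gene, known from bipolar cell terminals, had a lowest, median and highest value of 6.76, 6.87 and 7.03 in diabetic retinas. In controls these were 6.89, 7.02 and 7.16. Its change of -0.12 ± 0.05 did not pass (limma, adjusted p = 0.218), and the groups overlapped. Grm4, the remaining group III member of the list, was dim and differed by -0.02, with an interval from -0.08 to 0.04. Grm2, which belongs with Grm3 to the group II receptors, had 6.15, 6.30 and 6.41 in diabetic and 6.08, 6.18 and 6.37 in control retinas (0.06 ± 0.06; limma, adjusted p = 0.584). Grm3 differed by 0.01 ± 0.05. Grm5, which couples to phospholipase C, differed by -0.08 ± 0.07 and had the largest control SD of the 29 genes (0.16). Across the 6 metabotropic genes 4 values lay below 0, with a median of -0.05.

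Slc17a7, the vesicular transporter of photoreceptors and bipolar cells, came next by p-value and missed the threshold. Diabetic replicates 1 to 6 had 11.31, 11.27, 11.22, 11.25, 11.29 and 11.16, against 11.38, 11.35, 11.41, 11.28, 11.49 and 11.46 in controls. Control replicate 4 lay within the diabetic range, and the other 5 controls lay above all diabetic retinas. The change was -0.14 ± 0.04 (95% interval -0.22 to -0.06; limma, adjusted p = 0.0555), a level 9.51% lower. At the threshold of 0.05 with all arrays kept, Slc17a7 passed in 3 of 10 alternative limma fits. These were a variance trend (adjusted p = 0.0497), removal of genes below the 25th percentile (0.0489) and cyclic loess (0.0497). It did not pass in the others, where the adjusted p reached 0.107. Slc17a8, the vesicular transporter of a class of amacrine cells, had a lowest, median and highest value of 6.28, 6.34 and 6.41 in diabetic and of 6.19, 6.31 and 6.45 in control retinas (0.03 ± 0.04; limma, adjusted p = 0.758).

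**Figure D3:**
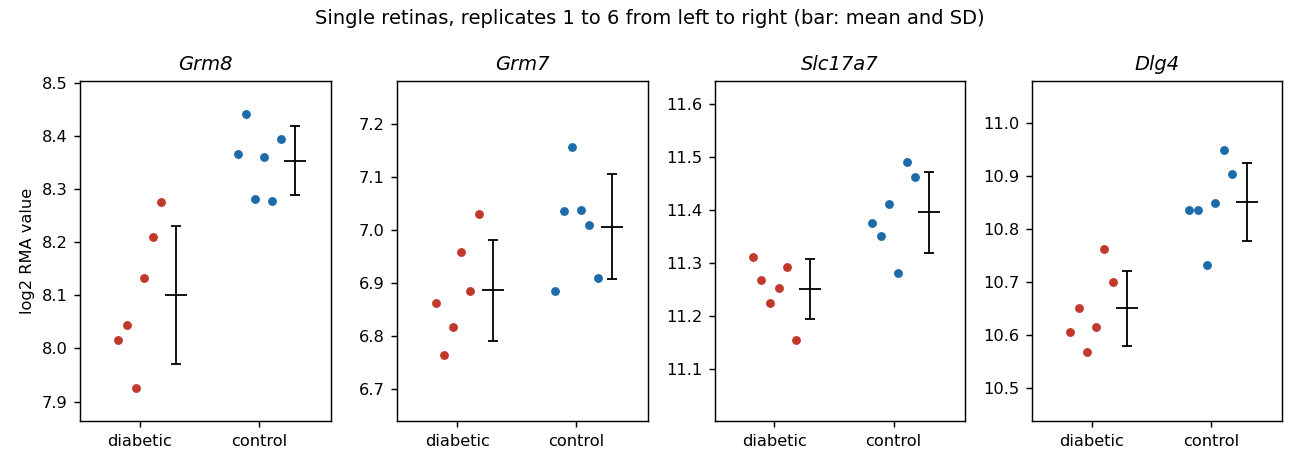
Log2 RMA values (y axis, the same span in each panel) of Grm8, Grm7, Slc17a7 and the scaffold gene Dlg4 in 6 diabetic (red) and 6 control retinas (blue), replicates 1 to 6 from left to right, with mean and SD. Grm8 separates the groups by 0.002, and the other 3 overlap.

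The upstream sequences of the 3 genes with an unadjusted p under 0.05, all lower in diabetic retinas, are given to show what precedes their starts; they are the 250 bases before the RefSeq start lying farthest upstream, build GRCm38.p6. They lie at chr6:28135147-28135396 (minus strand) for Grm8, chr7:45163671-45163920 (plus strand) for Slc17a7 and chr6:110645262-110645511 (plus strand) for Grm7. Capitals mark matches on either strand to GGGCGG, the GC box, to CCAAT, to the motif TAATCC, a core of photoreceptor homeobox factors such as CRX, or to the TATA box TATAAA.
Grm8: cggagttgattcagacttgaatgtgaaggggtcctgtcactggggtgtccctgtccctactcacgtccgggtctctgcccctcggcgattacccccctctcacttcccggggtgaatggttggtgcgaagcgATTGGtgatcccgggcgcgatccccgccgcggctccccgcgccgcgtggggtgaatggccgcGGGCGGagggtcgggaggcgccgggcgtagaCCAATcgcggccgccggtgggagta
Slc17a7: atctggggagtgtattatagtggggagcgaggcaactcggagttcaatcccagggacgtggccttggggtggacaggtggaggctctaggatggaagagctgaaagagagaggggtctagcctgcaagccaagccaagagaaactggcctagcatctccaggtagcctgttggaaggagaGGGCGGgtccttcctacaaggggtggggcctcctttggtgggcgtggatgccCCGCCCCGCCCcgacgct
Grm7: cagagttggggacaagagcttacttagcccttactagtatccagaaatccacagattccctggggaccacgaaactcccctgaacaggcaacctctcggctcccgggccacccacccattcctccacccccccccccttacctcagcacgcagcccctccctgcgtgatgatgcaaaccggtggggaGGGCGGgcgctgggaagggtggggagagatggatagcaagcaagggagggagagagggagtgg
Grm8 carries 1 GC box and 2 CCAAT matches, Slc17a7 3 GC boxes and Grm7 1 GC box. GGGCGG occurs in 32.7% and CCAAT in 33.8% of the 32851 promoters of the table over the same length. TAATCC (6.3% of promoters) and TATAAA (12.4%) have no match in these 3 windows. The windows hold 29, 9 and 8 CpG dinucleotides for Grm8, Slc17a7 and Grm7, against a median of 6 over all promoters, and their GC content is 68.4%, 61.2% and 62% against a median of 52.4%. Promoters were matched for 20 of the 29 genes, and a GC box stands in 12 of these 20 (60%), a CCAAT match in 3, TATAAA in 1 and TAATCC in 0. No measurement of binding or methylation accompanies these sequences.

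Transporters of the plasma membrane had 0 calls, with 3 of 4 values below 0 and a median of -0.04. Slc1a2, in the retina a transporter of cones and bipolar cells, had a lowest, median and highest value of 10.45, 10.48 and 10.57 in diabetic retinas, against 10.48, 10.54 and 10.73 in controls. Its change was -0.08 ± 0.04 (limma, adjusted p = 0.287). Slc1a1, a transporter of horizontal, amacrine and ganglion cells, had 8.21, 8.37 and 8.56 in diabetic and 8.10, 8.29 and 8.39 in control retinas, the largest positive change of the 29 genes (0.12 ± 0.07; limma, adjusted p = 0.365). Slc1a7, the transporter of photoreceptor and bipolar terminals that also conducts chloride, had 9.35, 9.43 and 9.55 in diabetic and 9.32, 9.55 and 9.60 in control retinas (-0.05 ± 0.05; limma, adjusted p = 0.597). Slc1a6 differed by -0.02 ± 0.04. All 4 overlapped between the groups.

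Spread within the groups differed between genes. SDs over 6 animals ran from 0.03 to 0.13 in diabetic and from 0.03 to 0.16 in control retinas, with medians of 0.07 and 0.08, where the median of all genes was 0.05 in either group. The diabetic SD was the larger for 9 of the 29 genes. By array, 11 to 16 of the 29 genes lay above the control mean in diabetic retinas and 7 to 21 in controls. Control 3 (21 genes) and control 2 (18 genes) were the highest and control 6 (7 genes) the lowest, a wider span than among diabetic retinas. Control 2 and control 6 were the highest and lowest controls for Grm5, with 7.00 and 6.57, and for Grin2b, with 7.01 and 6.63.

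**Figure D4:**
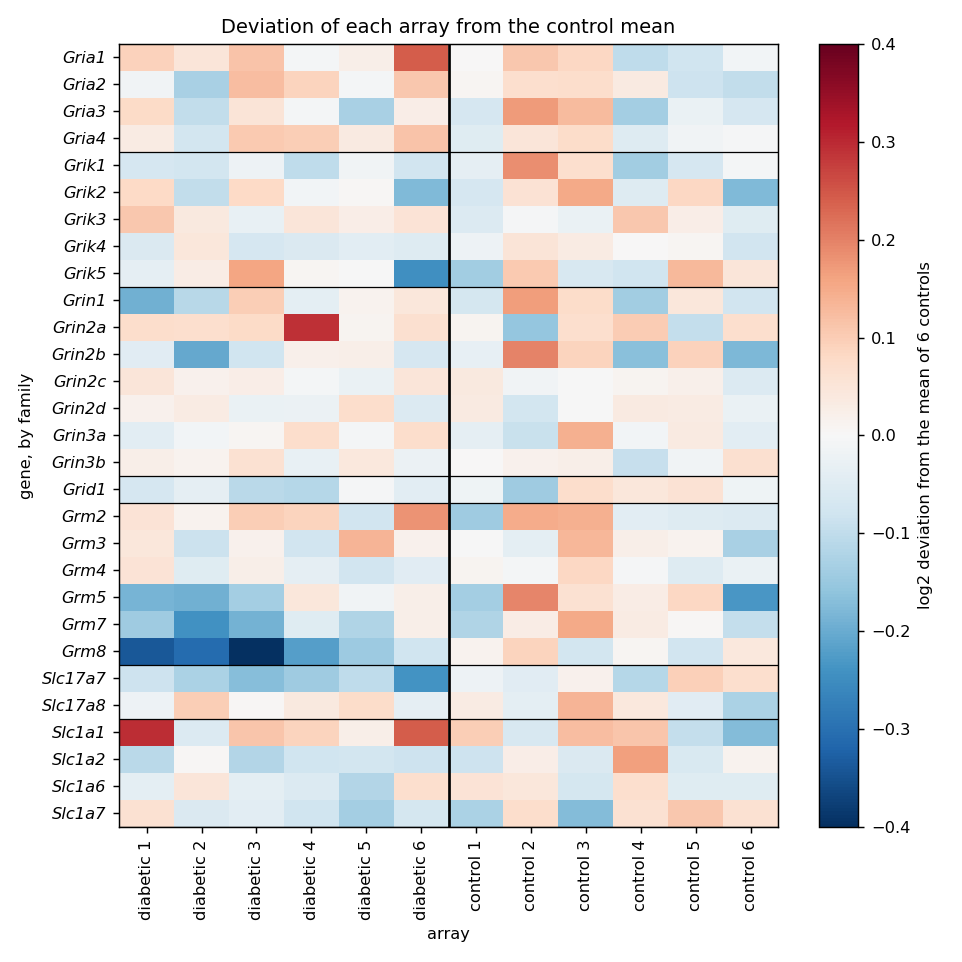
Deviation of each array (columns, diabetic left of the black line, control right) from the mean of the 6 controls for each gene (rows, by family), on the log2 scale from -0.4 (blue) to 0.4 (red). Grm8, Slc17a7, Grik1 and Grid1 lie below the control mean in all 6 diabetic columns and Grin2a above it, while the other rows mix both colours.

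Whether Grm8 passed varied with the array left out. Calls over all genes varied too, from 325 to 835 with 1 array left out, against 797 with all 12. The change of Grm8 stayed between -0.29 and -0.22 when each array was left out in turn. Its adjusted p was above 0.05 in 9 of the 12 runs. It was 0.0678 without diabetic 1, 0.0529 without diabetic 2, 0.0566 without diabetic 3 and 0.0614 without diabetic 4. Among controls, leaving out replicate 1 gave 0.0626, replicate 2 or 6 gave 0.0678, replicate 3 gave 0.0523 and replicate 4 gave 0.0531. The call held without diabetic 5 (0.0363), diabetic 6 (0.0234) or control 5 (0.0382). It also held without both retinas richest in lens crystallin, diabetic 2 and 6 (-0.28, adjusted p = 0.0416). For Slc17a7 the call was gained in 1 of the 12 runs, without control 4 (limma, adjusted p = 0.0289), and the adjusted p reached 0.105 in the others. Its changes lay between -0.17 and -0.13 over the 12 runs.

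**Figure D5:**
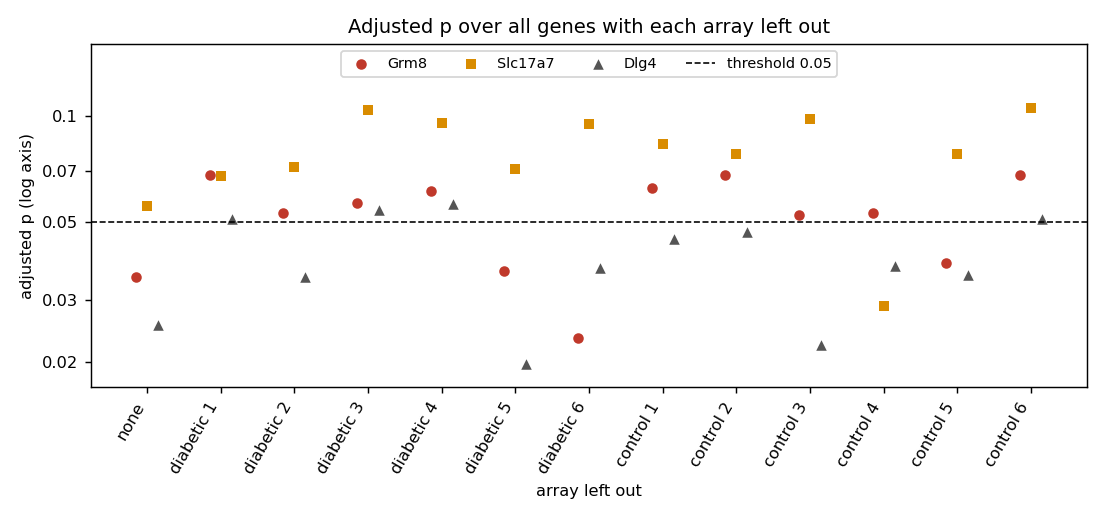
Adjusted p over all genes (log axis) of Grm8, Slc17a7 and Dlg4 with no array left out and with each of the 12 left out (x axis); the dashed line is 0.05. Grm8 lies above the line in 9 of the 12 runs, at no more than 0.0678.

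Among diabetic retinas, Grm8 was lower in the 4 animals with the lower label numbers, a gap in the numbers setting them apart from the other 2. These 4 had values from 7.93 to 8.13, and the 2 with higher numbers had 8.21 and 8.28. Fitted against all 6 controls in comparisons chosen after the data were seen, the first 4 gave -0.32 (adjusted p = 0.0196) and the other 2 gave -0.11 (limma, adjusted p = 0.353). With these 2 alone, limma called 0 genes in all, and 3423 had an unadjusted p under 0.05. For Slc17a7 the same fits gave -0.13 and -0.17, neither past the threshold, and for the scaffold gene Dlg4 -0.24 (adjusted p = 0.0281) and -0.12 (adjusted p = 0.367). The difference between the 2 sets of numbers was not tested.

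Among the cell type markers, 3 passed the test: Gfap of astrocytes, which rose, and Arr3 of cones and Septin4 of horizontal cells, which fell, where 1.47% of all genes were higher and 1.77% lower. They are named because they passed, after their values were seen. Calls numbered 0 among 7 rod, 8 bipolar, 6 amacrine, 8 ganglion cell and 6 Mueller cell markers. They also numbered 0 among 5 microglia, 4 endothelium, 7 pigment epithelium, 11 lens and 4 oligodendrocyte markers. Over all genes 3.24% passed in either direction. Gfap was dim, with a mean of 5.77 beside an array median of 5.73. Gfap ranged from 5.80 to 5.96 in diabetic and from 5.58 to 5.74 in control retinas, without overlap (0.19 ± 0.03; limma, adjusted p = 0.0126). The other 2 astrocyte markers, S100b and Pax2, differed by 0.09 and -0.06 and did not pass. The mean of 6 cone markers ranged from 9.30 to 9.50 in diabetic and from 9.48 to 9.61 in control retinas, so the groups overlapped, and differed by -0.12. Arr3, the cone arrestin gene, fell by 0.30 ± 0.07 on the log2 scale (limma, adjusted p = 0.0348), and the other 5 did not pass. Of these, Pde6h differed by -0.25 (adjusted p = 0.0728), Gnat2 by -0.09 and Gngt2 by -0.07, while the cone opsin genes Opn1sw and Opn1mw differed by 0.02 and -0.01. The mean of 5 horizontal cell markers ranged from 6.78 to 6.85 in diabetic and from 6.85 to 6.91 in control retinas. Septin4 differed by -0.24 (limma, adjusted p = 0.0475), and of the other 4, Onecut2 and Calb1 lay above 0 (0.02 and 0.03) and Lhx1 and Onecut1 below (-0.05 and -0.02). Means of 8 bipolar markers ranged from 9.66 to 9.79 in diabetic and from 9.65 to 9.76 in control retinas. Their mean difference of 0.00 covers 5 changes above 0 and 3 below, from 0.17 for Isl1 (limma, adjusted p = 0.0524) to -0.23 for Pcp2 (limma, adjusted p = 0.105), and 0 passed. The mean of 7 rod markers differed by 0.00. The part of these markers in the lower Grm8 values was not tested.

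Of 61 genes that serve the same synapses, 1 passed, against 3.24% of all genes, and 8 had an unadjusted p under 0.05 (13.1%, against 21% of all genes). The gene past the test was Dlg4, which encodes the scaffold PSD-95, found in the retina also in photoreceptor terminals. Diabetic replicates 1 to 6 had 10.61, 10.65, 10.57, 10.62, 10.76 and 10.70, against 10.84, 10.84, 10.73, 10.85, 10.95 and 10.90 in controls. Dlg4 fell by 0.20 ± 0.04 on the log2 scale (limma, adjusted p = 0.0255), and diabetic 5 lay just above control 3, the one overlap. Its call was lost without diabetic 1 (adjusted p = 0.0511), diabetic 3 (0.0539), diabetic 4 (0.0563) or control 6 (0.0509), and without the lens-rich diabetic 2 and 6 together (0.0575). Its relative Dlg1 had a change of 0.06 ± 0.02 in the other direction (limma, adjusted p = 0.0749). Among the 20 scaffold and trafficking genes 10 changes lay above 0 and 10 below.

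Auxiliary subunits of AMPA and kainate receptors held 0 calls among 14 genes (median -0.02), and the smallest p-values belonged to Cacng5 (-0.14 ± 0.08; limma, adjusted p = 0.321) and Neto2 (-0.14 ± 0.08; limma, adjusted p = 0.331). Among 8 synaptic organisers (median -0.04), Elfn1, which binds metabotropic receptors across the cleft, differed by -0.15 ± 0.09 and the pentraxin receptor gene Nptxr by -0.11 ± 0.13, and 0 passed. Of 11 genes of glutamate and D-serine metabolism and amino acid carriage 0 passed as well. Srr, the serine racemase that supplies the NMDA co-agonist, differed by -0.13 ± 0.05 (limma, adjusted p = 0.187). Adarb1, the enzyme that edits the Gria2 transcript, differed by -0.05 ± 0.06. In 7 further genes of the same families, 0 passed, and the smallest p-values were those of Grm6, the receptor gene of ON bipolar cells, with -0.20 ± 0.08 (limma, adjusted p = 0.154), and Slc1a4, with -0.10 ± 0.04 (limma, adjusted p = 0.161). The 7 include 2 transporter genes also used as markers, Slc1a3 of Mueller cells (0.00 ± 0.07) and Slc17a6 of ganglion cells (0.11 ± 0.08). Of the 7 changes, 4 lay above 0 and 3 below.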

How the data were processed

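Gene expression was measured in 12 retinas, 6 diabetic and 6 control, with biotin-labelled cRNA on Affymetrix arrays. The deposited table holds log2 values made by the authors with RMA, per the submitters' processing notes; these notes give neither a version nor the array's name. Each of 24973 lines is 1 Entrez gene number. The sorted values of all arrays are identical, so a common shift of all genes cannot be seen.

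Lines were named with the platform annotation (24015) and RefSeq GRCm38.p6 (559), 399 without a name were left out, and for 4 symbols on more than 1 line the brightest was kept, leaving 24570 genes. Diabetic minus control was tested with limma 3.58.1 in R 4.3.3 (lmFit, eBayes, two-sided, 95% intervals), adjusted over all genes with a threshold of 0.05 and no filter, and the procedure was tested on simulated data. Array values or ranges are given for genes past the test and for up to 3 genes of smallest p per family; from the 61 accessory genes, those past the test and the 2 of smallest p per group are named, except 1 gene that is not reported here. The members and lists were chosen with earlier results of these data known. Upstream sequences come from RefSeq. Alternatives covered the variance model, filters, array weights, normalization, the replicate block, covariates, group medians and each array left out. Precision is limited by the number of arrays.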

Additional observations from a re-analysis of the deposited data

Results flagged for a closer look

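In 60 groups of 6 retinas (the 29 genes and Dlg4, each in diabetic and control animals), 3 had 1 array far from the other 5, as judged by the gap to the nearest value over the whole range (Dixon's 95% critical value); chance flags about 1 in 20. All 3 were high values in diabetic retinas. Grik4 had 5.93 in diabetic 2 with 5.84 as the next value (ratio 0.788). Grin2a had 6.16 in diabetic 4 with 5.95 next (0.758), and Slc1a2 had 10.57 in diabetic 2 with 10.49 next (0.656).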

How the results depend on the processing

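Deviations of animals with the same replicate number correlated from -0.16 to 0.17, above 0.1 in 1 of 6 pairs. Of the 6 diabetic arrays, 1 correlated best with its own number. These values gave no sign of pairing by replicate number, but 6 pairs cannot exclude one. Lower genes among the 29 numbered 1; they were 2 (Grm8 and Slc17a7) with a variance trend, with genes at or above the 25th percentile, with cyclic loess or at an adjusted p of 0.10, and 0 with the replicate block (adjusted p of Grm8 0.0560; 2 lower genes at an unadjusted p under 0.05) or with the 2 diabetic arrays of higher label number alone (2). Leaving out 1 array gave 0 to 1. Higher genes numbered 0 in every alternative. Accessory genes numbered 2 with array weights, with cyclic loess and with the 4 diabetic arrays of lower number, 4 at 0.10, 0 without the lens-rich diabetic 2 and 6 (10 at an unadjusted p under 0.05; Dlg4 -0.21, adjusted p = 0.0575) and 0 with the arrays of higher number (8), and 0 to 2 with 1 array left out. Of all genes, 797 passed; 506 did so with the block, 491 with the lens covariate, 1967 at 0.10, 379 without diabetic 2 and 6, 291 with the arrays of lower number, 0 with those of higher number (3423 at an unadjusted p under 0.05) and 325 to 835 with 1 array left out. The sets by label number and without diabetic 2 and 6 were chosen after seeing the data.

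No sign changed with cyclic loess, which shifted the median of all genes to 0.00, and 20 genes kept their sign throughout. The sign of 9 genes without a call turned in some alternative, with adjusted p from 0.773 to 0.997 where a test was run. As differences of group medians, which have no test, Gria3 was 0.0557, Grik5 0.0107, Grin1 0.001 and Grin2d -0.0186. With array weights Gria3 was 0.0053, Grik2 0.0082, Grik5 0.0169 and Grin2d -0.0023. With the lens covariate Grik2 was 0.0027 and Grik5 0.0113, and with the pigment epithelium covariate Grik5 was 0.0048. Without diabetic 2 and 6, Grik2 was 0.0384 and Grik5 0.0321. With the arrays of lower number, Gria3 was 0.0062, Grik2 0.0125, Grik5 0.0394, Grin2d -0.0002 and Grm3 -0.0251, and with those of higher number Grin1 was 0.0299 and Grm5 0.0044. With 1 array left out, Gria3 ran from -0.0399 to 0.0210, Grik2 from -0.0553 to 0.0109, Grik5 from -0.0495 to 0.0314, Grin1 from -0.0586 to 0.0031, Grin2d from -0.0123 to 0.0138, Grin3a from -0.0033 to 0.0428, Grin3b from -0.0033 to 0.0275 and Grm3 from -0.0167 to 0.0352. The cause of these turns was not tested. The table gives no signal over background, which limits statements on the 5 genes below the array median and on those just above it.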
